A study of Homo sapiens with 148 samples.

Results

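The genes described here are 8 genes that mark mesendoderm and definitive endoderm, namely SOX17, EOMES, T (brachyury, now named TBXT), GSC, MIXL1, OTX2, HHEX and CXCR4. They were taken by name from the 49085 gene names of the deposited RNA-seq table, in which each has a single entry. Of the 8, 7 encode transcription factors, and CXCR4 encodes a receptor of the cell surface for the chemokine CXCL12.

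The table follows wild-type H9 cells, a single established line of human embryonic stem cells (hESCs), on their way to pancreatic islet organoids, and gives the authors' mean TPM (a measure of RNA abundance that corrects for transcript length) at 6 stages. Undifferentiated hESCs were the starting point. Definitive endoderm (DE) was collected on day 4, after activin A on days 1 and 2 together with the GSK3 inhibitor CHIR99021 and the ROCK inhibitor Y27632 on day 1. Primitive gut tube-like cells (PGT) were collected on day 7, after the growth factor KGF. Pancreatic progenitors (PP) were collected on day 14, after KGF, Sant1, retinoic acid, Y27632 and, early in that interval, LDN193189 and PdBU. Islet organoids with stem cell-derived β cells (SC-β) were collected on day 35, after Sant1, retinoic acid, the compound XXI, betacellulin, Alk5i II and T3. For a stage labelled PH neither the labels nor the methods say what the letters stand for or when it was collected, and it is set beside PP here without a place in the order. The labels list 2 replicates per stage, 12 RNA-seq samples of 148 samples in all, but the deposited columns are means over them. No spread between replicates can be computed, so every value below is the authors' mean without an error, no difference was tested, and neighbouring values in an order of stages cannot be said to differ beyond replicate spread. Between hESCs and day 4 no stage was sampled.

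As background, Nodal or activin signalling together with WNT signalling turns pluripotent cells into mesendoderm, the population of the primitive streak from which both mesoderm and endoderm arise. EOMES, T, GSC and MIXL1 are switched on early in this step, and SOX17, OTX2, HHEX and CXCR4 mark the endoderm that follows, HHEX continuing into the foregut from which liver and pancreas bud. The receptor CXCR4 is often used with KIT to sort definitive endoderm.

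DE was the stage at which most of these genes were highest. Compared with hESCs, 6 of the 8 were at least 2-fold higher in DE on the scale of TPM + 1, where 28.2% of all names at 1 TPM or more in either stage were, and 0 were at least 2-fold lower (5.55% of all names). By PGT, 3 days later, 7 of the 8 were at least 2-fold lower than in DE (10.6% of all names) and HHEX alone of the 8 was higher (4.94% of all names). The highest of the 6 stages was DE for 7 of the 8 and PGT for HHEX, although hESCs came first for T and MIXL1 after median-ratio rescaling and for T also without the 100 most abundant names. Among the 7 of these genes that reached 10 TPM in some stage, 6 were highest in DE, MIXL1 not after rescaling, against 23.1% of the 12849 names that reached it. SOX17, GSC and MIXL1 reached 10 TPM only in DE, so that DE was their highest stage follows from this limit. T did not reach it. The median log2 ratio of the 8 between DE and hESCs was 3.50, beside 0.58 for all names at 1 TPM or more.

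**Figure D1:**
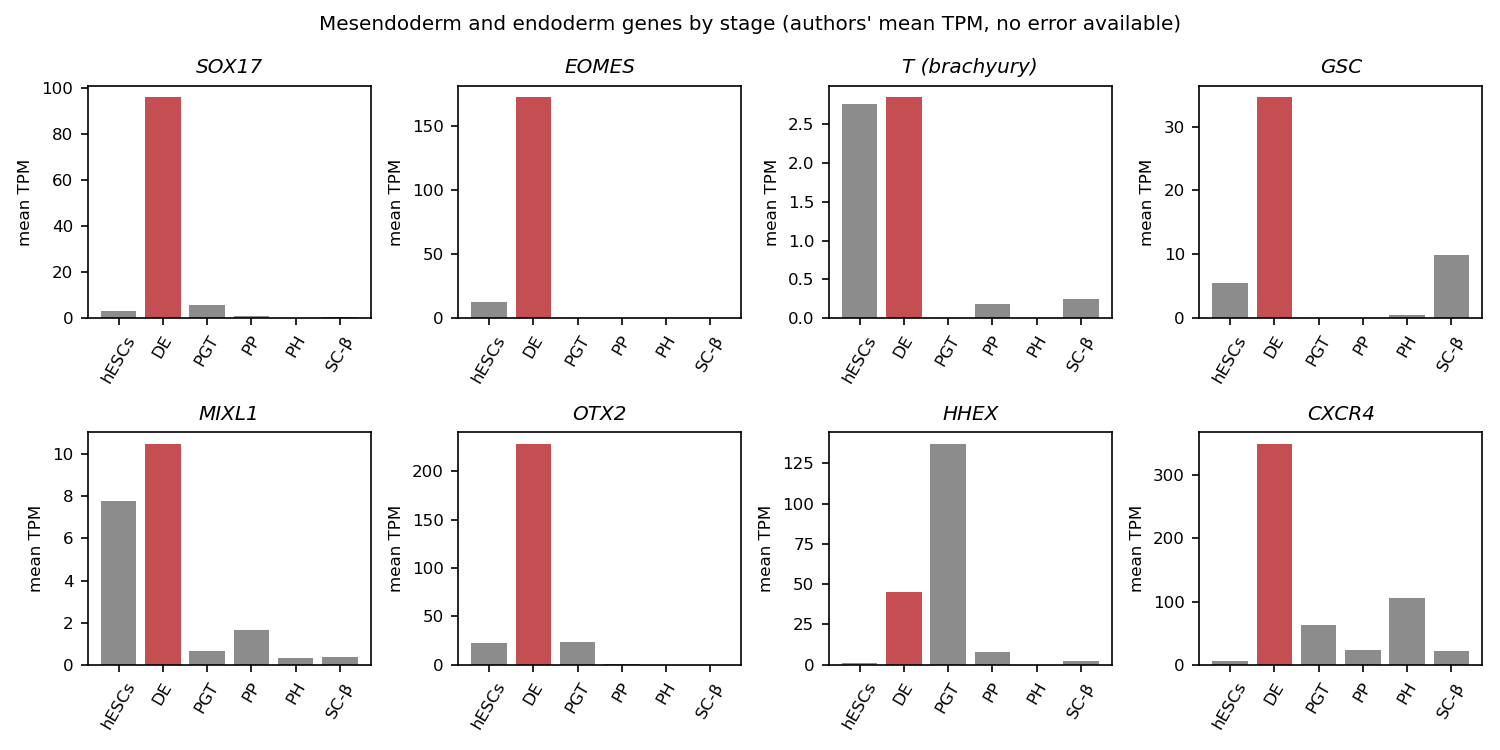
Mean TPM (vertical axis, a separate linear scale from 0 in each panel) of the 8 genes at the 6 stages (horizontal axis), with DE in red and the other stages in grey; bars are the authors' means over replicates, without an error. CXCR4 reached 350.3 TPM in DE and T only 2.85 TPM, and HHEX was highest in PGT at 137.3 TPM. GSC has a bar again in SC-β, and the tallest bar of CXCR4 outside DE is that of PH.

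The values of all names were shifted between stages, which bears on every ratio here. A few structural RNAs, among them RN7SK and RN7SL1, took 31.8% of the TPM total in DE, the lowest share, against 39.0% in hESCs and 50.9% in PH, the highest. Of all names that differed at least 2-fold between DE and hESCs, 6352 were higher and 1250 lower. With median-ratio rescaling of the stages, which lowers the DE to hESC ratio of TPM by 0.48 on the log2 scale, and that of TPM + 1 by less, 3591 were higher and 2365 lower. The 6 genes higher in DE were still at least 2-fold higher after that rescaling, the smallest of their log2 ratios being that of GSC, 2.46 as deposited and 2.03 rescaled. Rescaling also changed the split for PH against PP, from 2522 higher and 2812 lower to 3356 higher and 2183 lower. In bulk RNA a lower value cannot be told apart between fewer cells that use a gene and less of its RNA in each cell.

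DNA next to the start sites is shown for 5 of the genes, so that genes with a high ratio in DE (OTX2, GSC, CXCR4), a low one (MIXL1) and the highest level in PGT (HHEX) can be compared. RefSeq (GRCh38.p14) gave 11 windows for 7 of the 8 genes, and for each gene the window furthest upstream was searched over the 250 bases before the start. Stretches that GENCODE version 44 places in an exon of a protein-coding gene are not shown, which shortens MIXL1 to 204 bases and leaves none of EOMES. The window of T is not shown either, although 205 of its bases lie outside such exons. It held none of the motifs searched. The windows of OTX2 and CXCR4 lie inside the span that GENCODE gives these genes but in none of its exons, and that of GSC overlaps an exon of an unnamed long non-coding RNA gene. The sequences read 5′ to 3′ toward the gene, and capitals mark matches to the FOXH1 core AATNNACA (TGTNNATT on the other strand), named for the partner of SMAD proteins in the Nodal pathway, or to the CCAAT box (ATTGG on the other strand).
GSC, chr14:94770114-94770363 (reverse strand): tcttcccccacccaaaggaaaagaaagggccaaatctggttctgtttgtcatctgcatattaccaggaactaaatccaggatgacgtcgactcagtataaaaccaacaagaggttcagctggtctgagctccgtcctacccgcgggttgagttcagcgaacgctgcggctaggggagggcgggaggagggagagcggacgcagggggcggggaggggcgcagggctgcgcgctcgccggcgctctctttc
MIXL1, chr1:226223414-226223617 (forward strand): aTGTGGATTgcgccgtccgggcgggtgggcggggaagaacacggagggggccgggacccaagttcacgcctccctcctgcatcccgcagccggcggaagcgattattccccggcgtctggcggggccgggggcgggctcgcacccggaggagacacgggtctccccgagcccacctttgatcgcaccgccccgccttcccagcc
OTX2, chr14:56810480-56810729 (reverse strand): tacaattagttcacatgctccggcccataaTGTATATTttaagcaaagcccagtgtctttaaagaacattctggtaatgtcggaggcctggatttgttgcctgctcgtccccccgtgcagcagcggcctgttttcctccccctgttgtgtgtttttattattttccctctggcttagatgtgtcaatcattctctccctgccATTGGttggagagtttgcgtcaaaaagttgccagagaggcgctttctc
HHEX, chr10:92689705-92689954 (forward strand): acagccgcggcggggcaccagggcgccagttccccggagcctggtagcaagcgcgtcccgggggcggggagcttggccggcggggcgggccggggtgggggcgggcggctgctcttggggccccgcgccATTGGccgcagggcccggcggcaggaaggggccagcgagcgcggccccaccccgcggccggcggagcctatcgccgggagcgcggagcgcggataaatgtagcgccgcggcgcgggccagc
CXCR4, chr2:136118150-136118399 (reverse strand): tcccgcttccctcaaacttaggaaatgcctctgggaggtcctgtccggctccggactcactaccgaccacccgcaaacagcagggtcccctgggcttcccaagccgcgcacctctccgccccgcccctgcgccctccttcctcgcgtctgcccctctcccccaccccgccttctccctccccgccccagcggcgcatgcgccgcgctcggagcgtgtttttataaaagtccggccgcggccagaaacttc

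The FOXH1 core was in the windows of MIXL1 and OTX2, 2 of the 7 genes, where 9.88% of all 35116 RefSeq windows hold it. The CCAAT box was in those of OTX2 and HHEX, where 32.0% of all windows hold it. The SMAD element CAGACA, the T-box site AGGTGT, the GATA site AGATAA and the bicoid-type site TAATCC, each searched on both strands, were in 0 of the 7 windows and in 13.6%, 9.57%, 9.17% and 5.62% of all windows. These letters may lie elsewhere around the genes. OTX2, which was 9.95-fold higher in DE than in hESCs, and MIXL1, which differed little, both hold the FOXH1 core, while the windows shown for GSC and CXCR4 hold none of the motifs searched. Another RefSeq window of CXCR4 holds the FOXH1 core, and CXCR4 also has a CCAAT box outside the window shown. The windows differ in base composition, from 47.2% G and C for OTX2 to 81.2% for HHEX, with a median of 58.0% over all windows.

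The T-box factors went apart in level. EOMES, which opens the endoderm programme in the early embryo, is annotated at 27715949 to 27722711 of chromosome 3, reverse strand (ENSG00000163508.13; GRCh38, as for the positions that follow). hESCs had 12.5 TPM, DE 172.3 TPM, PGT 0.353 TPM, PP 0.0167 TPM and SC-β 0.0115 TPM, and it is listed at 0 in PH. DE was therefore high, hESCs intermediate, and every later stage below 1 TPM. Its level in DE was 12.9-fold that in hESCs on the scale of TPM + 1 (log2 ratio 3.69), and in PGT it was lower by a log2 ratio of -7.00, the largest drop between these stages among the genes with a value above 0 in both. Only 0.205% of its DE level was present in PGT. In DE it ranked 514 among the 21619 names at 1 TPM or more.

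T, the founding T-box gene and a marker of the primitive streak and nascent mesoderm, is annotated at 166157656 to 166168700 of chromosome 6, reverse strand (ENSG00000164458.10). hESCs had 2.76 TPM of T and DE 2.85 TPM, PP had 0.183 TPM and SC-β 0.252 TPM, and the gene is listed at 0 in PGT and PH. hESCs and DE were thus close in T (log2 ratio 0.03), and the sign depends on the scaling: the ratio was -0.32 after median-ratio rescaling and -0.11 without the 100 most abundant names, which makes hESCs the highest stage. The level of EOMES in DE, which TPM makes comparable between genes, was far above that of T, which ranked 15270 among the names at 1 TPM or more. The long non-coding RNA gene LNCDAT overlaps T on the opposite strand in GENCODE, and whether the counting kept the strands apart is not given in the sources used here.

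SOX17, a SOX factor required for endoderm and later used by arterial endothelium, is annotated at 54457935 to 54460892 of chromosome 8, forward strand (ENSG00000164736.6). hESCs had 3.22 TPM, DE 96.1 TPM, PGT 5.88 TPM, PP 0.985 TPM and SC-β 0.641 TPM, and it is listed at 0 in PH. Only DE was high, 23.0-fold above hESCs on the scale of TPM + 1. PGT kept 6.12% of the DE level, against 0.205% for EOMES, and from PGT to PP it was lower again by a log2 ratio of -1.79. Its margin over the next highest stage, PGT, was a log2 ratio of 3.82. Its relatives of the same SOX subgroup were low: SOX7 was at 0.364 TPM in DE and at most 2.89 TPM, in PGT, and SOX18 did not exceed 0.172 TPM at any stage. Because endothelial cells also use SOX17, markers of endothelial and blood cells were read beside it. VWF, the von Willebrand factor gene, had 191.1 TPM in DE against 0.465 TPM in hESCs and at most 1.21 TPM at the other stages, whereas the other 9 markers summed to 10.6 TPM in DE and 54.7 TPM in hESCs. PECAM1 and CDH5, defining markers of endothelium, were at 0.430 and 0.0984 TPM in DE, after 0.137 and 0.0143 TPM in hESCs. The part of such cells in the SOX17 values was not tested.

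Of the homeodomain factors, GSC, the organizer gene goosecoid, is annotated at 94768223 to 94770113 of chromosome 14, reverse strand (ENSG00000133937.5). hESCs had 5.46 TPM, DE 34.6 TPM, PH 0.583 TPM and SC-β 9.93 TPM, and it is listed at 0 in PGT and PP. The course thus had a high point in DE, none of its RNA listed at the following stages, and a value again in SC-β. It was 5.51-fold higher in DE than in hESCs on the scale of TPM + 1 (log2 ratio 2.46). It was the gene among the 8 whose next highest stage after DE was SC-β, at 28.7% of the DE level and above its level in hESCs. No fold is given against PGT or PP, where it is listed at 0.

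MIXL1, a paired-type homeodomain factor of the primitive streak, is annotated at 226223618 to 226227060 of chromosome 1, forward strand (ENSG00000185155.12). hESCs had 7.80 TPM, DE 10.5 TPM, PGT 0.664 TPM, PP 1.65 TPM, PH 0.344 TPM and SC-β 0.357 TPM. Like T, and unlike the other 6 genes, it was less than 2-fold higher in DE than in hESCs (log2 ratio 0.39), and its ratio was -0.05 after median-ratio rescaling. It was 6.92-fold lower in PGT than in DE on the scale of TPM + 1.

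OTX2, a factor of pluripotent epiblast, anterior endoderm and anterior neural tissue, is annotated at 56799905 to 56816693 of chromosome 14, reverse strand (ENSG00000165588.19). hESCs had 22.1 TPM, DE 228.8 TPM, PGT 23.9 TPM, PP 0.964 TPM, PH 0.0554 TPM and SC-β 0.0805 TPM. It was the transcription factor with the highest level among the 8 genes in hESCs and in DE, and it was 9.95-fold higher in DE than in hESCs on the scale of TPM + 1. Its level in PGT was close to that in hESCs, at 10.4% of the DE value, and a further drop followed from PGT to PP (log2 ratio -3.66, after -3.21 from DE to PGT). Because OTX2 was below 1 TPM in PP, the size of this drop depends on the pseudocount. With 0.1 TPM the log2 ratios of OTX2 were -4.49 and -3.26. The opposite-strand gene OTX2-AS1, which overlaps it, did not exceed 0.157 TPM. Its relative OTX1 was at 6.69 TPM in DE and had its highest value, 15.2 TPM, in SC-β, where OTX2 was near 0.

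Markers of anterior neural cells were read beside OTX2. Of 12 such genes, 4 reached 1 TPM in DE, and 0 of the 12 did so in hESCs or in PGT. The 4 were DMBX1 at 6.48 TPM, PAX6 at 4.40 TPM, LMX1B at 3.40 TPM and SIX3 at 2.57 TPM. Among these stages they passed the minimum only in DE, so their lower values in hESCs and PGT follow from the choice. Over all 12 genes the median log2 ratio between DE and hESCs was 0.07. The 12 summed to 17.6 TPM in DE, 27.8 TPM in PH and 58.2 TPM in SC-β, so their summed level was highest at stages where OTX2 was near 0. The part of such cells in the OTX2 values was not tested.

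HHEX, a homeodomain factor of anterior endoderm, liver, pancreas and islet delta cells, is annotated at 92689955 to 92695647 of chromosome 10, forward strand (ENSG00000152804.11). hESCs had 1.08 TPM, DE 45.0 TPM, PGT 137.3 TPM, PP 8.03 TPM, PH 0.108 TPM and SC-β 2.58 TPM. Its order of stages was the only one of the 8 with PGT first: it was 22.1-fold higher in DE than in hESCs and a further 3.01-fold higher in PGT on the scale of TPM + 1. PP was lower than PGT by a log2 ratio of -3.94. In PGT it ranked 579 among 19675 names at 1 TPM or more, and in DE it ranked 2873.

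Genes that accompany HHEX elsewhere in the body were compared. All 10 liver and yolk-sac type genes listed for this reached 1 TPM in PGT, and 9 of them were at least 2-fold higher there than in DE, with a median log2 ratio of 3.10, beside 4.94% and -0.19 for all names. TTR, the thyroid hormone carrier transthyretin, had 943.2 TPM in PGT after 0.306 TPM in DE, and the apolipoprotein gene APOA1 had 251.8 TPM after 33.7 TPM. From PGT to PP, 8 of the 10 were at least 2-fold lower, as HHEX was, with a median log2 ratio of -2.17, beside 7.46% and -0.10 for all names. In SC-β, where HHEX had 2.58 TPM, TTR had 1229 TPM, above its PGT value. Also above their PGT values were ALB with 39.3 TPM after 2.99 TPM, SERPINA1 with 92.1 TPM after 49.7 TPM and AFP with 34.3 TPM after 22.2 TPM. APOA1 with 36.0 TPM, APOA2 with 8.76 TPM and APOB with 22.9 TPM were below theirs, as were FGB, HNF4A and PROX1. The delta cell hormone gene SST had 48.1 TPM in PP and was higher in SC-β, with 203.3 TPM, whereas HHEX was lower. Of the other 3 delta cell genes, RBP4 had 10.6 TPM in SC-β but was highest in PGT, at 22.0 TPM. LEPR had 5.57 TPM in SC-β and was highest in DE, at 10.4 TPM, and GHSR did not exceed 0.103 TPM at any stage.

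CXCR4 is annotated at 136114349 to 136119177 of chromosome 2, reverse strand (ENSG00000121966.8). hESCs had 6.53 TPM, DE 350.3 TPM, PGT 63.7 TPM, PP 23.0 TPM, PH 106.4 TPM and SC-β 21.8 TPM. It had the highest level of the 8 genes in DE, ranking 222 among the names at 1 TPM or more, and the largest ratio to hESCs, 46.6-fold on the scale of TPM + 1 (log2 ratio 5.54). CXCR4 stayed above its hESC level at the other 5 stages, and HHEX did so at all of them but PH. For CXCR4 the next highest stage was PH, 4.47-fold above PP on the scale of TPM + 1.

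The partners of CXCR4 had other orders of stages. Its ligand CXCL12 had 20.1 TPM in hESCs, less in DE with 9.29 TPM, and its highest value in SC-β, 94.1 TPM, where CXCR4 was at 21.8 TPM. ACKR3, the other receptor of CXCL12, which removes the ligand, was highest in DE with 74.9 TPM, against 1.72 TPM in hESCs, and had 15.9 TPM in PGT, 10.3 TPM in PP, 27.2 TPM in PH and 25.3 TPM in SC-β. KIT, the receptor used with CXCR4 in sorting, had 141.5 TPM in DE, against 8.63 TPM in hESCs, and 68.7 TPM in PGT.

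**Figure D2:**
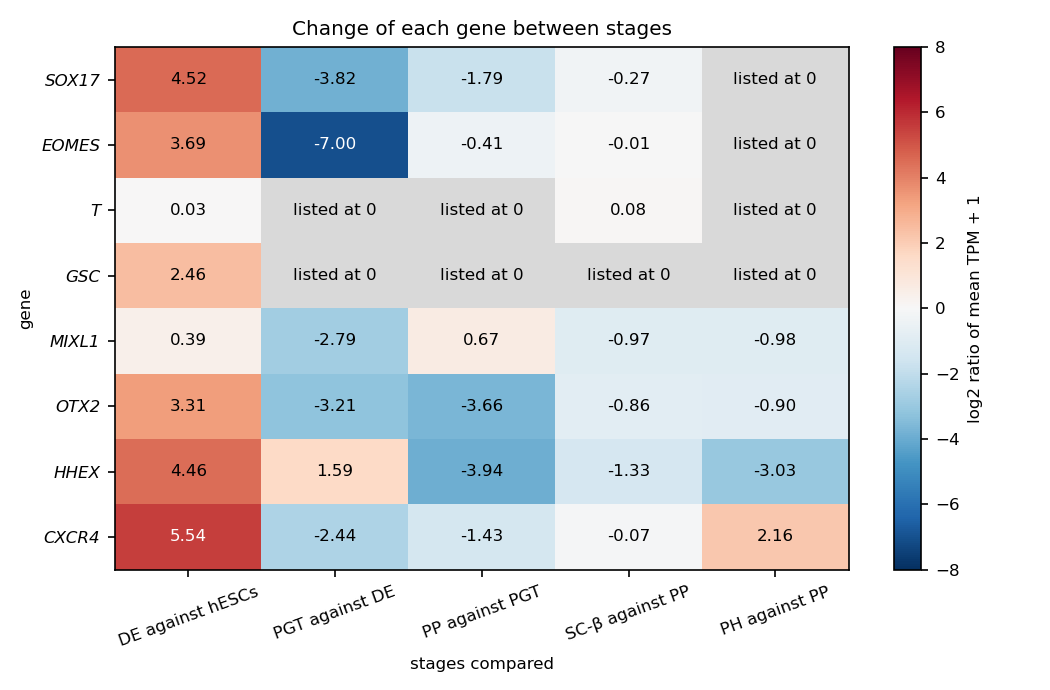
Log2 ratio of mean TPM + 1 for each of the 8 genes (rows) in 5 comparisons of stages (columns), red for higher and blue for lower in the stage named first; grey cells hold a stage listed at 0 and give no ratio. The first column is above 2 for 6 genes and near 0 for T and MIXL1, and HHEX is the red cell in the column of PGT against DE.

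After PGT few of the 8 genes had a level to compare. From PGT to PP, 5 of the 8 were at 1 TPM or more in either stage, of which SOX17, OTX2, HHEX and CXCR4 were at least 2-fold lower (7.46% of all names) and 0 were higher (6.3% of all names). From PP to SC-β, GSC was higher and HHEX at least 2-fold lower, 1 of 4 in each direction, where 20.7% of all names were higher and 1.84% lower. In PH against PP, CXCR4 was higher and HHEX lower by a log2 ratio of -3.03, 1 of 3 in each direction, where 11.5% of all names were higher and 12.8% lower. CXCR4 was the gene among the 8 that reached 1 TPM in PH, and SOX17, EOMES and T are listed at 0 there.

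DE stood out most for SOX17, EOMES and OTX2. Of the 7 that reached 10 TPM in DE, these 3 were at least 4-fold above every other stage on the scale of TPM + 1, where 101 of 9922 such names, or 1.02%, were. By the size of the margin SOX17 was in place 9, EOMES in place 11 and OTX2 in place 24. CXCR4 and GSC, in places 135 and 136, had log2 margins of 1.71 over PH and 1.70 over SC-β. Just inside the 4-fold limit lay ERBB4 with 2.01 and just outside it IL23A with 1.98. MIXL1 had a margin of 0.39 over hESCs, and HHEX was below PGT.

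**Figure D3:**
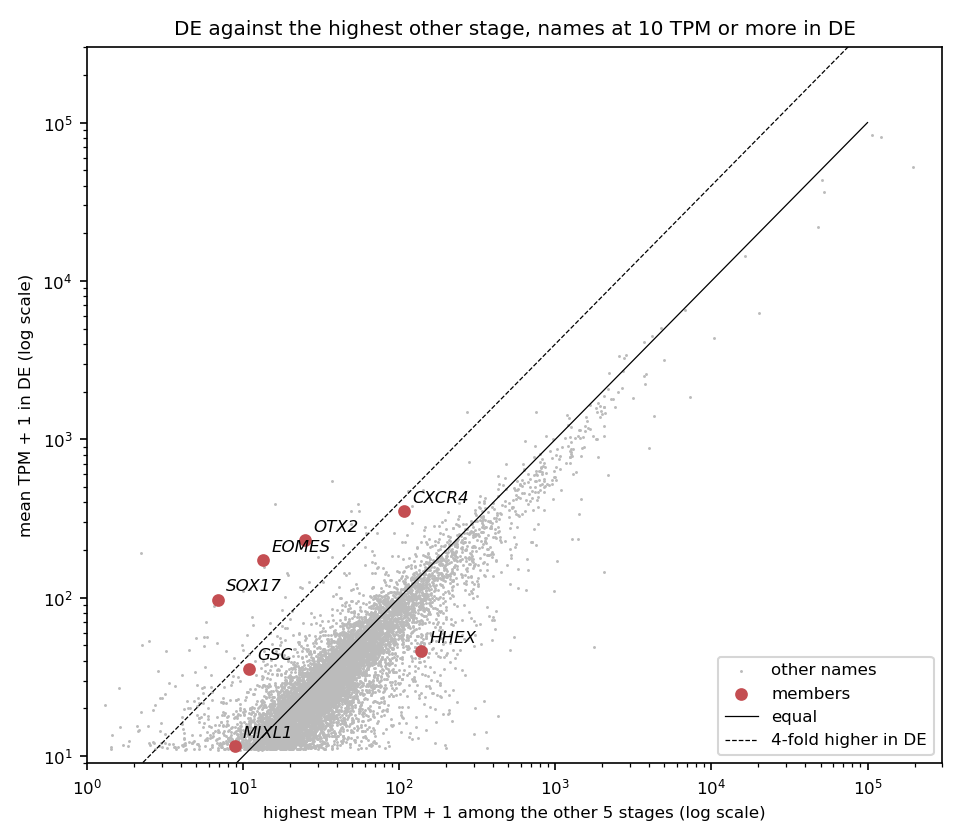
Mean TPM + 1 in DE (vertical, log scale) against the highest mean TPM + 1 among the other 5 stages (horizontal, log scale) for the 9922 names at 10 TPM or more in DE; red points are the genes described here, the solid line marks equality and the dashed line 4-fold. SOX17, EOMES and OTX2 lie above the dashed line, GSC and CXCR4 between the lines, MIXL1 close to equality and HHEX under it; T is below the limit of 10 TPM.

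The 8 genes were compared with each other by Pearson's r of log2(TPM + 1) over the 6 stages, given as a description, since the points share libraries and a fixed total. The highest values were 0.963 for T and MIXL1, 0.943 for SOX17 and OTX2, 0.922 for EOMES and MIXL1 and 0.915 for EOMES and T. The lowest were 0.0064 for GSC and HHEX and 0.0105 for T and CXCR4. HHEX did not exceed 0.671 with any of the others, with SOX17, nor CXCR4 0.580, also with SOX17.

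Names with the most similar course over the 6 stages were sought among those at 10 TPM or more in some stage. The closest to EOMES was MYCT1, with 10.2 TPM in DE, 2.26 TPM in hESCs and at most 0.129 TPM later (r = 0.9997). HHEX was followed by AK3 (0.997), FOLR1, the folate receptor (0.994), and FZD4, a WNT receptor (0.988), and FZD4 matched it in size too, with 125.4 TPM in PGT, 47.7 TPM in DE and 3.40 TPM in hESCs. CXCR4 was followed by AGPAT6 (0.980), ERBB4, a receptor tyrosine kinase (0.9795), and CDC42SE2 (0.977), and ERBB4 had 82.0 TPM in DE, 0.307 TPM in hESCs and 19.7 TPM in PH. The closest to SOX17 were ZNF578 (0.992), AC068587.2 (0.992) and METTL21A (0.986), to GSC KLF11 (0.980), RNF138P1 (0.976) and USP31 (0.976), and to OTX2 TRAPPC6A (0.993), VTA1 (0.991) and GPN1 (0.990). Those of T were CAPG (0.992), GRPR (0.992) and RP11-400N13.2 (0.992), those of MIXL1 DAD1 (0.993), SALL2 (0.989) and PRKCDBP (0.986), and those of EOMES after MYCT1 were RP4-559A3.6 (0.998) and AC079896.1 (0.996). An r of 0.9 or more was reached by 73 names with GSC, or 0.568% of the names compared, the lowest count among the 8, and by 249 names with HHEX, or 1.94%, the highest. The measure ignores size: METTL21A had 20.3 TPM in DE and 16.0 TPM in hESCs.

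Genes of the signals that induce mesendoderm were read beside the 8. Of 15 genes of the Nodal and WNT pathways, 14 were at 1 TPM or more in DE. Between DE and hESCs, 7 were at least 2-fold higher in DE, 2 were lower and 5 differed less, with a median log2 ratio of 0.93, where 28.2% of all names were higher, 5.55% lower and the median was 0.58. Of the 7, SMAD4, FOXH1 and TCF7L1 lay near the 2-fold limit, with log2 ratios of 1.24, 1.36 and 1.36. This list was not recomputed with rescaled stages. The ligand gene NODAL was among the lower ones, with 181.0 TPM in hESCs, 31.3 TPM in DE and 0.988 TPM in PGT. TDGF1, the co-receptor of NODAL, stayed high in DE, with 292.9 TPM after 255.5 TPM in hESCs, and had 5.61 TPM in PGT. FOXH1, the DNA-binding partner of the SMAD proteins, had its highest value in DE, 57.8 TPM, against 21.9 TPM in hESCs, 12.6 TPM in PGT and 0.109 TPM in PP. CTNNB1, the gene of β-catenin, stayed between 249.4 TPM in PH and 506.0 TPM in PGT, and AXIN2, a feedback target of WNT signalling, had 18.2 TPM in DE and its highest value, 81.9 TPM, in SC-β.

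Among 15 primitive streak and early mesoderm genes, 9 were at 1 TPM or more in hESCs or DE, of which 2 were at least 2-fold higher in DE, 1 was lower and 6 differed less, a share of higher genes near the 28.2% of all names. EOMES, T, GSC and MIXL1, which also belong to this step, were split, with EOMES 12.9-fold and GSC 5.51-fold higher in DE and T and MIXL1 little changed. LHX1, a LIM-homeodomain gene of the anterior streak and later of neurons, had 56.8 TPM in DE, against 2.28 TPM in hESCs, and 92.1 TPM in PH. FGF8 had 20.4 TPM in DE and a similar 25.5 TPM in PP. The WNT target SP5 had 26.3 TPM in DE and the ligand gene WNT3 9.76 TPM. The mesoderm genes MESP1, MESP2 and MSGN1 were below 1 TPM at every stage.

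Among 15 other definitive endoderm genes, 14 were at least 2-fold higher in DE than in hESCs, and LEFTY1 was not, with a median log2 ratio of 3.88, beside 28.2% and 0.58 for all names. CER1, a secreted inhibitor of Nodal and BMP signals, had 1483 TPM in DE, against 269.7 TPM in hESCs, and 1.63 TPM in PGT, a drop of the kind seen for EOMES. CYP26A1, which breaks down retinoic acid, had 391.8 TPM in DE after 15.0 TPM and was at 0.426 TPM in PGT. SHISA2 had 226.7 TPM in DE and less in PGT, 16.6 TPM, whereas DKK1, a WNT inhibitor, was highest in PGT, as HHEX was, at 429.1 TPM. Of the 15, 11 were highest in DE, and 8 were at least 2-fold lower in PGT than in DE (10.6% of all names). The pluripotency genes moved the other way from hESCs to DE, with 5 of 6 at least 2-fold lower (5.55% of all names). They were still present in DE beside the 8 genes, POU5F1 at 417.2 TPM after 1449 TPM in hESCs, L1TD1 at 237.1 TPM after 412.7 TPM, DPPA4 at 126.4 TPM after 266.4 TPM and ZFP42 at 58.5 TPM after 149.7 TPM. The largest falls were those of SOX2, at 22.4 TPM after 132.8 TPM, and NANOG, at 8.96 TPM after 44.6 TPM. The part of cells that had not left the hESC state in the DE values was not tested.

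**Figure D4:**
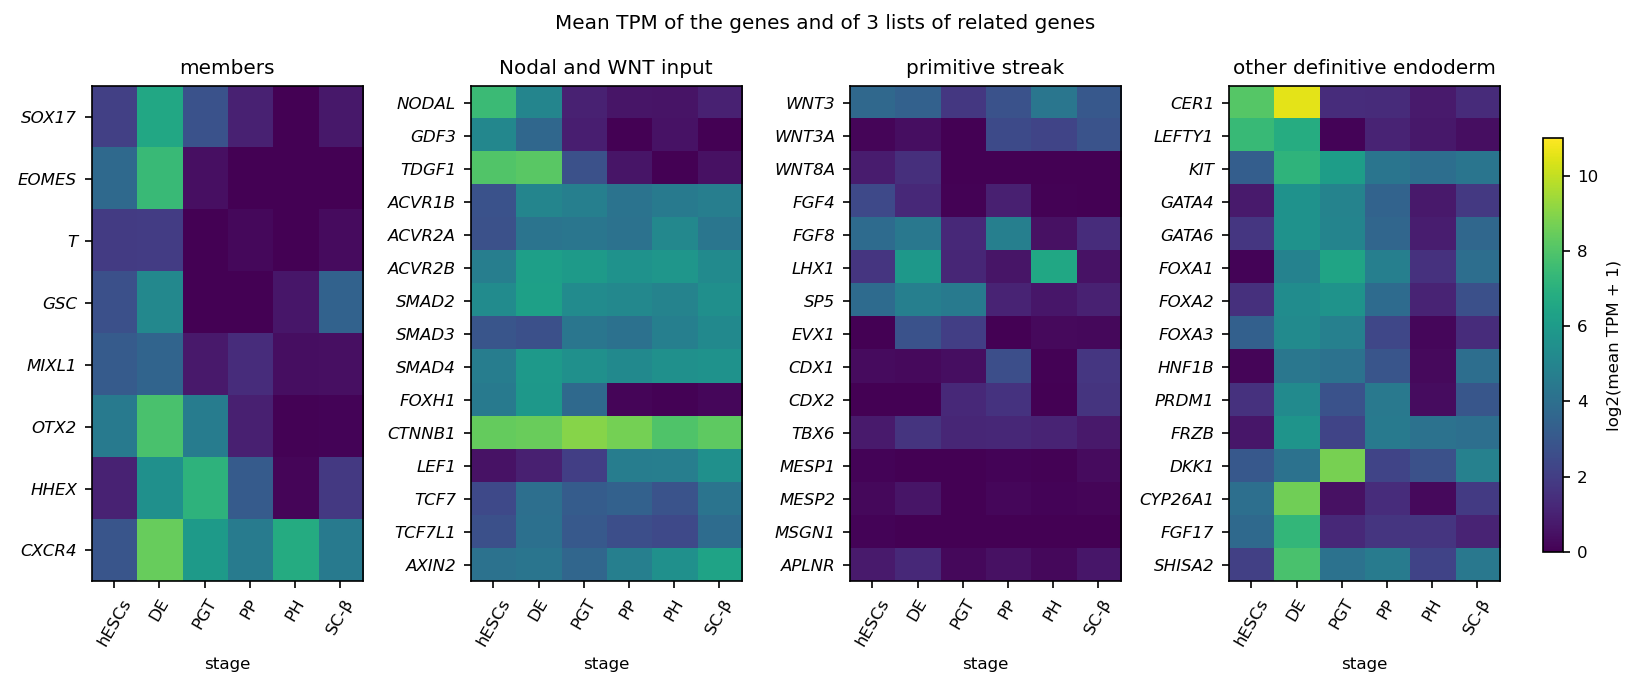
Mean TPM on the scale log2(TPM + 1) (colour) at the 6 stages (columns) of the genes described here and of 3 lists of related genes (rows): Nodal and WNT input, primitive streak and early mesoderm, and other definitive endoderm genes; values are the authors' means. The endoderm list is brightest in DE, with CER1 at 1483 TPM, while most primitive streak genes stay dark at every stage.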

How the data were processed

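RNA-seq reads of H9 hESCs and of the stages derived from them (2 replicates each per the labels) were mapped to hg38 (HISAT2 2.2.0) and summarised by the authors as TPM per gene (StringTie 2.1.6), tools that the submitters' processing notes name. The deposited values are TPM averaged over the replicates of a stage. They keep no read counts, so depth and the precision of single values are unknown, and the annotation and strand setting are not given in the sources used here. The methods state removal of ribosomal RNA, whereas the labels also name a stranded mRNA kit.

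The table holds 50451 entries under 49085 names; repeated names were summed. Ratios were computed as log2((TPM + 1)/(TPM + 1)) and counted from 2-fold, over names that reached 1 TPM in either stage. No test was possible. No fold is given against a stage listed at 0. Positions are from GENCODE version 44 (GRCh38, the same build as hg38) and upstream windows from RefSeq (GRCh38.p14). Those shown had the same letters as the genome.

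The genes, the 9 lists of other genes (97 genes, 96 of them listed in the table) and the comparisons were chosen with earlier results of these data known. The genes named were the 8, from each list the 4 with the highest TPM in any stage, and for each of the 8 the 3 names with the highest r. Other list genes, and neighbours in the genome, were named after their values were seen. Alternatives were a pseudocount of 0.1 TPM, median-ratio rescaling over 13938 names, totals without the 100 most abundant names or without mitochondrial genes, the highest entry of a repeated name, a 4-fold threshold and other minimum values. For the names of most similar course they were the rank-based Spearman's rho, that pseudocount and leaving out PH. The calculations were tested on simulated data. Python 3.11.15, numpy 2.4.6, pandas 2.3.3 and matplotlib 3.10.9 were used.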

Additional observations from a re-analysis of the deposited data

How the results depend on the processing

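No paired analysis was possible because the deposited columns are means over the replicates, and for the same reason no replicate could be left out. The table gives no depth, so the precision of low values, such as those under 1 TPM, is unknown. The count of 6 of the 8 genes higher in DE than in hESCs, that of 7 lower in PGT and that of 3 restricted to DE stayed within 1.5 times under every alternative tried. Of 200 log2 ratios under alternatives, 177 were on the same side of 2-fold with the same sign, 20 crossed it and 3, of T and MIXL1 in DE, changed sign while under 2-fold. At the 4-fold threshold 0 genes were higher in PGT than in DE, 2 were lower in PP than in PGT and 0 were lower in SC-β than in PP. From PGT to PP, 1 gene was higher with a pseudocount of 0.1 TPM and without the 100 most abundant names. From PP to SC-β, 2 were lower with that pseudocount and with median-ratio rescaling, 3 without the 100 most abundant names, and with a minimum of 10 TPM 0 were higher and 0 lower. In PH against PP, 2 were lower with that pseudocount, with rescaling and without mitochondrial genes, 4 were lower and 2 higher without the 100 most abundant names, and 0 were lower at 10 TPM. The cause was not tested. With any RefSeq window of a gene, an alternative chosen after seeing the data, the FOXH1 core was in 3, the SMAD element in 1, the GATA site in 1 and the CCAAT box in 4 of the 7 genes. For the 3 names closest to each gene, Spearman's rho in place of Pearson's r took the lowest value to 0.771 for OTX2, 0.845 for EOMES and 0.928 for T and GSC. With r these had been 0.990, 0.996, 0.992 and 0.976. Of 80 counts of all names, 34 moved by over 1.5 times. Against hESCs in DE they were 2365 lower with rescaling and 2019 without the 100 most abundant names, in place of 1250.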

Other observations

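The protein-coding genes within 50000 bases of these loci had courses of their own. LIN9, which lies 4089 bases from MIXL1, stayed between 6.98 TPM in PH and 14.04 TPM in SC-β, and ACBD3, on the other side of MIXL1, between 22.2 TPM in PH and 37.6 TPM in PGT. KIF11, a mitotic kinesin gene 34560 bases from HHEX, was lower in PGT, the stage at which HHEX was highest, at 22.7 TPM after 43.2 TPM in DE and before 46.6 TPM in PP. Its lowest value was in PH, 20.0 TPM, where HHEX was also lowest, at 0.108 TPM. RP1, 48530 bases from SOX17, did not exceed 0.0692 TPM at any stage.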
